A study of Brassica rapa subsp. pekinensis with 2 samples.

Results

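The sequences described here are those of the Brassica rapa miRNAs miR5711 to miR5726, 16 consecutive miRBase numbers that all carry the prefix bra. They were chosen by name: every listed name with 1 of these numbers after miR or MIR was taken, and each sequence was counted once. This gave 32 of the 1152 distinct sequences in the authors' table of expressed miRNAs, or 32 of 1220 names and 33 of 1359 records. Each of the 16 precursors had 2 listed sequences, 1 from each arm of its hairpin.

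The libraries came from the ‘FT’ line of Chinese cabbage (Brassica rapa subsp. pekinensis), a doubled haploid. The ‘Ant’ library holds RNA from anthers pooled over several stages of development, and the ‘Mix’ library holds root, stem and leaf of whole seedlings with 4 true leaves. Vernalization at 4 °C for 20 days is stated in the labels for both groups, but in the methods of the study for the ‘Ant’ plants only. There was 1 library per group, so no value below has a replicate error, and organ, age, growth stage and, if it differed, vernalization cannot be told apart between the groups.

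Plant miRNAs are cut by a Dicer-like enzyme from a transcript that folds back into a hairpin. The cut releases a short duplex made of a stretch from the 5′ arm and a stretch from the 3′ arm, with an overhang at each 3′ end. In Arabidopsis an Argonaute protein keeps one strand, which guides it to nearly complementary messenger RNAs, and the base at the 5′ end of the strand helps to decide which Argonaute takes it up. The other strand usually decays, so that one arm gives most of the reads. Many miRNAs known only from one plant genus are young, read at low levels and cut less precisely than conserved ones. A shared run of numbers in miRBase reflects the order of registration and does not make a family, so each number is treated here as a miRNA of its own. No function is assigned here to single members.

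With every sequence taken once, the table holds 1346716 miRNA reads for ‘Ant’ and 1393755 for ‘Mix’. As a check of the anther label, the 3 sequences of miR845, a miRNA of pollen in Arabidopsis, held 11214 reads in ‘Ant’ and 95 in ‘Mix’. Values are given as reads, which for all 32 members were whole numbers, and ratios are log2 of the authors' normalized reads in ‘Ant’ over those in ‘Mix’. The interval beside a ratio is the exact binomial interval at 95% and covers counting error at most, with no spread between plants. It may be too narrow even for that, since reads without molecular identifiers are not independent molecules. A sequence was called when its log2 ratio was beyond 1 in either direction and when its reads, set against the other miRNA reads, gave p at most 0.05 both by Fisher's exact test (two-sided) and by a chi-square test. A call says that 2 libraries differed, not that anthers differ from vegetative organs.

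The sequences with the largest numbers of reads or the largest ratios are shown first, 5′ to 3′ as the authors deposited them, written with T for U. Capitals mark the seed, bases 2 to 8. A name with MIR and p5 or p3 marks a sequence for which miRBase holds no mature entry under that name. In some precursors such a sequence overlaps the miRBase mature miRNA on the same arm, as described below. A suffix with ss marks bases that differ from the hairpin. Lower in ‘Ant’ were both arms of miR5719, the most read members, and of miR5725, miR5723 and miR5720, the members with the lowest ratios but for miR5713.
bra-MIR5719-p5_2ss2AT19AC: tTGTGTTGtgatgataatcc
bra-MIR5719-p3_1ss21AT: tCGGATTAtcatcacaacact
bra-MIR5725-p5: aAAATTACttaagaacacaca
bra-MIR5725-p3: tGGCACAAtctgatctgcatc
bra-MIR5723-p5: tTCGTGAAatgtgctgcaata
bra-MIR5723-p3: tTGCAGCAcatttcacgaagg
bra-MIR5720-p5: tCACAAAAccataatactgta
bra-MIR5720-p3: aTTTTTAActgtacgatgatt

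Higher in ‘Ant’ were both arms of miR5718, miR5724 and miR5711 and the 3′ arm of miR5726, the only member of 24 nt.
bra-MIR5718-p5: gATGCATAaccagtagatatg
bra-miR5718: tCAGAACCaaacacagaacaag
bra-miR5724: aACCGCCGgtttgataatagc
bra-MIR5724-p3: aTTATAAAaccggcggttaga
bra-MIR5711-p5: cGGTAAAAgccttcaaaatatg
bra-miR5711: tGTTTTGTgggtttctaccga
bra-MIR5726-p3_1ss20GA: aACGTGTCgtcttctagtgatgcc

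Further sequences are shown because they differ from both groups. The arms of miR5721 had ratios of opposite sign, and the 3′ arm of miR5712 was well read in both libraries with a ratio inside 2-fold.
bra-MIR5721-p5_2ss12CT19GA: aTAATTTActctaaaaataga
bra-MIR5721-p3_1ss5GA: tTTTACAGtaaattatggag
bra-miR5712_1ss13AG: aATATTAAtatagttggtgag

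The 32 members had 32 distinct seeds, so no 2 of them shared one. Outside the members, 4 seeds occurred in other listed sequences. The seed of bra-miR5711 was also that of bra-miR403-5p and of ath-miR403-5p_2ss11TG16TC. The seed of bra-MIR5723-p3 was also that of mes-MIR172c-p5, and those of bra-MIR5715-p3_1ss8AT and bra-MIR5718-p5 were each found in 1 sequence that the authors named PC.

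Of the 32 sequences, 24 were called, 16 of them lower in ‘Ant’ and 8 higher. The 16 lower ones were both arms of 8 precursors, so they are not 16 independent results. Over all 1152 sequences 46.9% were called, 19.3% lower and 27.6% higher, so the share of the members called lower, 50%, was above that of the table and the share called higher, 25%, was near it. Members were better read than most of the table, with at least 100 reads in 1 library for 24 of 32 members and for 258 of 1152 sequences. Among these better read sequences, 76% of all were called, 41.1% lower and 34.9% higher, beside 13 of 24 members lower and 8 of 24 higher. The median log2 ratio was -1.60 over the members and 0.37 over all sequences, leaving out those with at most 3 reads in both libraries. Among the members this left out the 3′ arm of miR5715. With every sequence kept and a pseudocount of 10, the medians were -1.12 and 0.14. Among the better read the median was -1.68 for members and -0.38 for all. With the exact test of edgeR, and the biological variation between replicates assumed at 0.4 (as a coefficient of variation), 21 members were called, 14 lower and 7 higher, beside 29.5% of all sequences. TMM scaling moved the median of all sequences by -0.21 on the log2 scale, and the ratios below are all relative to the scaling of the authors.

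**Figure D1:**
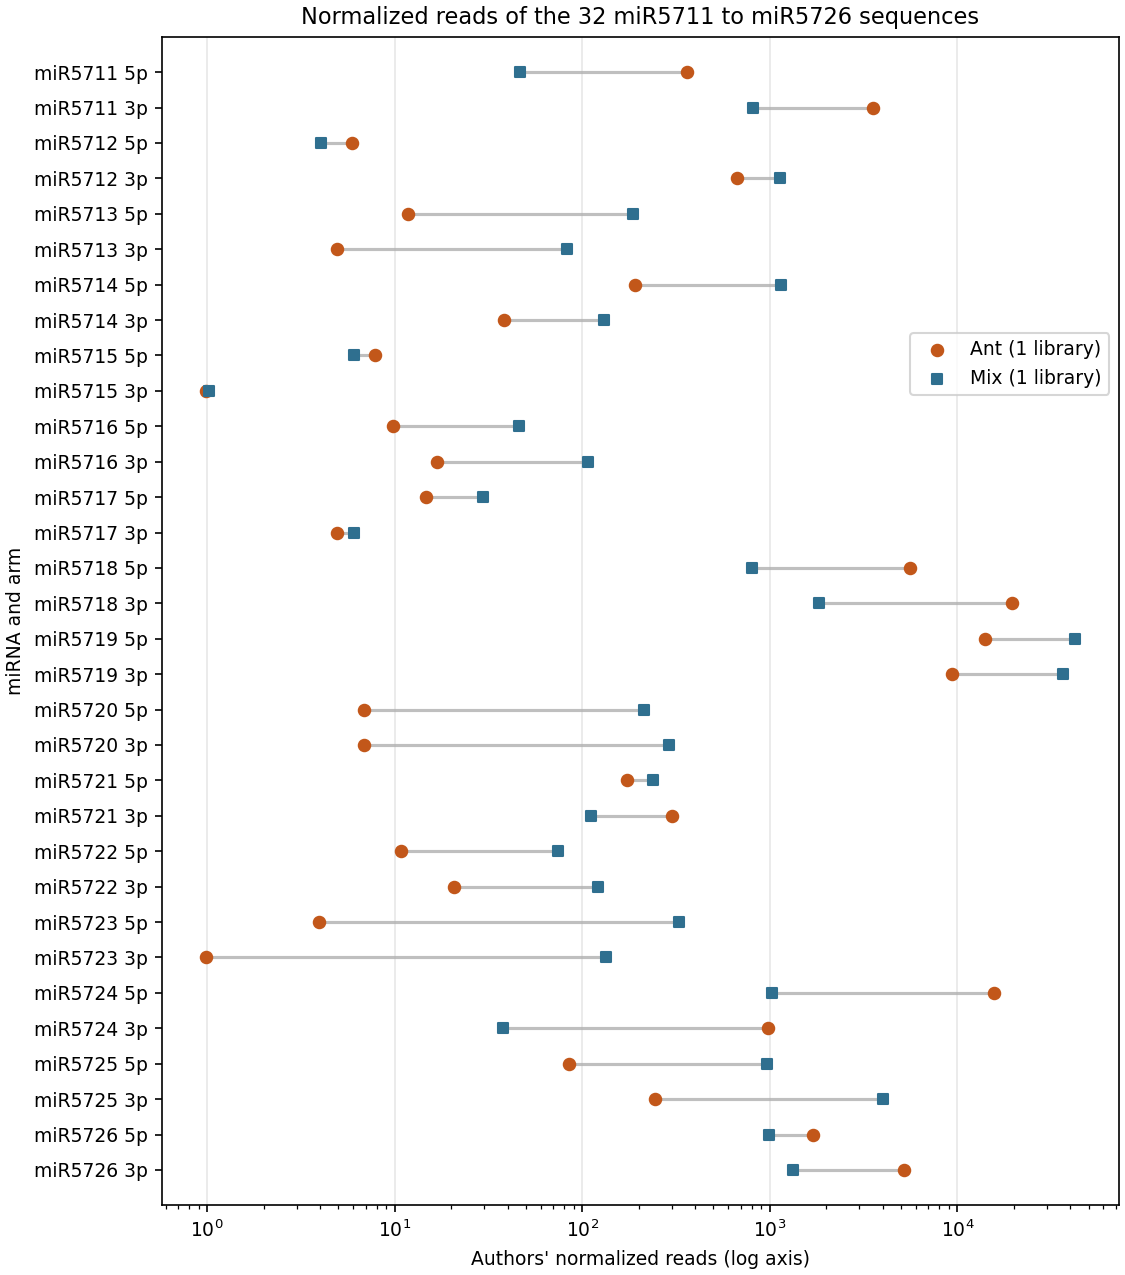
Normalized reads of the 32 sequences on a log axis, with a circle for the ‘Ant’ library and a square for the ‘Mix’ library, joined by a line. The 16 sequences called lower have their circle to the left of the square, and miR5719 sits farthest right in ‘Mix’ with 42485 and 36393 normalized reads.

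The most read members were the arms of miR5719 (A03:32238076-32238279, minus strand), and both were lower in ‘Ant’. The 5′ arm gave 14285 reads in ‘Ant’ and 41816 in ‘Mix’ (log2 ratio -1.60, -1.62 to -1.57). The 3′ arm had 9535 and 35820 reads, a ratio of -1.96 (-1.99 to -1.92). Among all sequences of the table the 2 arms ranked 7th and 8th in ‘Mix’ and 20th and 25th in ‘Ant’, so they were abundant in both libraries. The 3′ arm alone made up 2.57% of the miRNA reads in ‘Mix’ and 0.708% in ‘Ant’. The call of the 5′ arm was lost at an assumed variation of 0.4 (edgeR exact test, p = 0.0613), while that of the 3′ arm was kept (p = 0.0233).

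The ratios of miR5725, miR5723, miR5720 and miR5713 were lower than those of miR5719, at far fewer reads. Of these miR5725 (A08:5912306-5912510, minus strand) was read most. Its 3′ arm gave 249 reads in ‘Ant’ and 3936 in ‘Mix’ (log2 ratio -4.03, -4.22 to -3.84), and its 5′ arm had 86 and 955 reads, a ratio of -3.52 (-3.85 to -3.20). The intervals of the 2 arms overlapped by a narrow margin only, between -3.85 and -3.84. The lowest ratios belonged to miR5723 (A02:26022323-26022485, plus strand), which was close to the limit of counting in ‘Ant’. Its 5′ arm gave 4 reads in ‘Ant’ and 323 in ‘Mix’ (ratio -6.38, -8.27 to -5.01). Its 3′ arm had 1 and 131 reads, a ratio of -7.09 with a wide interval (-12.39 to -4.58). With a pseudocount of 10 the 2 ratios were -4.60 and -3.70, so at these counts their size depends on the scale. For miR5720 (A09:622643-622932, minus strand) both arms had 7 reads in ‘Ant’, beside 210 reads for the 5′ arm and 285 for the 3′ arm in ‘Mix’. The ratios were -4.95 (-6.28 to -3.88) and -5.39 (-6.72 to -4.33). The arms of miR5713 (A09:42063040-42063485, plus strand) had 12 and 5 reads in ‘Ant’ and 183 and 82 in ‘Mix’. Their ratios were -3.98 (-4.96 to -3.14) and -4.08 (-5.74 to -2.80), with overlapping intervals.

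The other lower members had ratios between -2.78 and -1.76. The 5′ arm of miR5714 (A06:4737102-4737337, minus strand) gave 195 reads in ‘Ant’ and 1126 in ‘Mix’ (log2 ratio -2.58, -2.80 to -2.35). Its 3′ arm had 39 and 128 reads, a ratio of -1.76 (-2.32 to -1.23), and was not called at an assumed variation of 0.4 (edgeR exact test, p = 0.0502). This arm and the 5′ arm of miR5719 were the 2 lower members that lost the call there. For miR5716 (A09:1813788-1813993, minus strand) the 3′ arm, which miRBase lists as the mature miRNA, went from 105 reads in ‘Mix’ to 17 in ‘Ant’, a ratio of -2.67 (-3.51 to -1.93). Its 5′ arm had 45 and 10 reads, a ratio of -2.22 (-3.37 to -1.21). The arms of miR5722 (A10:15622205-15622420, plus strand) had 11 and 21 reads in ‘Ant’ against 73 and 120 in ‘Mix’, with ratios of -2.78 (-3.84 to -1.85) and -2.56 (-3.30 to -1.88). In both miRNAs the intervals of the 2 arms overlapped.

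Among the members higher in ‘Ant’, miR5724 (A08:14539943-14540252, plus strand) had the largest ratios. Its 5′ arm, the mature miRNA of miRBase, gave 15929 reads in ‘Ant’ and 1009 in ‘Mix’ (log2 ratio 3.93, 3.84 to 4.03). Its 3′ arm had 993 and 37 reads, a ratio of 4.70 (4.23 to 5.22), and the 2 intervals did not overlap. The most read member in ‘Ant’ was the 3′ arm of miR5718 (A09:6043510-6043743, plus strand), a sequence of 22 nt that ranked 14th in ‘Ant’ and 70th in ‘Mix’. It gave 19782 reads in ‘Ant’ and 1789 in ‘Mix’ (ratio 3.42, 3.35 to 3.49). The 5′ arm of miR5718 had 5684 and 794 reads, a ratio of 2.79 (2.69 to 2.90). Here the arm with more reads also had the larger ratio, unlike miR5724.

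The other members called higher belonged to miR5711, miR5726 and miR5721. The 3′ arm of miR5711 (A04:18447936-18448043, minus strand) gave 3594 reads in ‘Ant’ and 802 in ‘Mix’ (log2 ratio 2.12, 2.01 to 2.23). Its less read 5′ arm had 367 and 46 reads and a ratio of 2.95 (2.51 to 3.43). For miR5726 (A10:8462085-8462426, plus strand) the 3′ arm was called and the 5′ arm was not. The 24-nt sequence of the 3′ arm had 5289 and 1302 reads, a ratio of 1.98 (1.89 to 2.07), and the 5′ arm had 1732 and 973, a ratio of 0.79 (0.67 to 0.90). The arms of miR5721 (A02:28260257-28260434, minus strand) had ratios of opposite sign. The 3′ arm gave 307 reads in ‘Ant’ and 110 in ‘Mix’ (ratio 1.43, 1.12 to 1.76), and the 5′ arm had 175 and 235, a ratio of -0.47 (-0.76 to -0.18). The call of the 3′ arm was the only higher one lost at an assumed variation of 0.4 (edgeR exact test, p = 0.0993).

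The 8 members that were not called fell into 2 kinds. Well read and inside 2-fold were the 5′ arms of miR5721 and miR5726 above and the 3′ arm of miR5712, which gave 675 reads in ‘Ant’ and 1113 in ‘Mix’ (log2 ratio -0.77, -0.91 to -0.63). Thinly read were the 5′ arm of miR5712, both arms of miR5715 (A08:12458250-12458435, plus strand) and both arms of miR5717 (A06:22355278-22355389, plus strand). Of these bra-miR5717_L+1R-1 was nearest to a call, with 15 reads in ‘Ant’ and 29 in ‘Mix’ (ratio -0.997, -2.002 to -0.05) and p = 0.0502 by Fisher's exact test. The other 4 had under 10 reads in both libraries, from 1 to 8 reads, where a 2-fold difference was not detectable at this depth. No member was at 0 reads in a library.

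**Figure D2:**
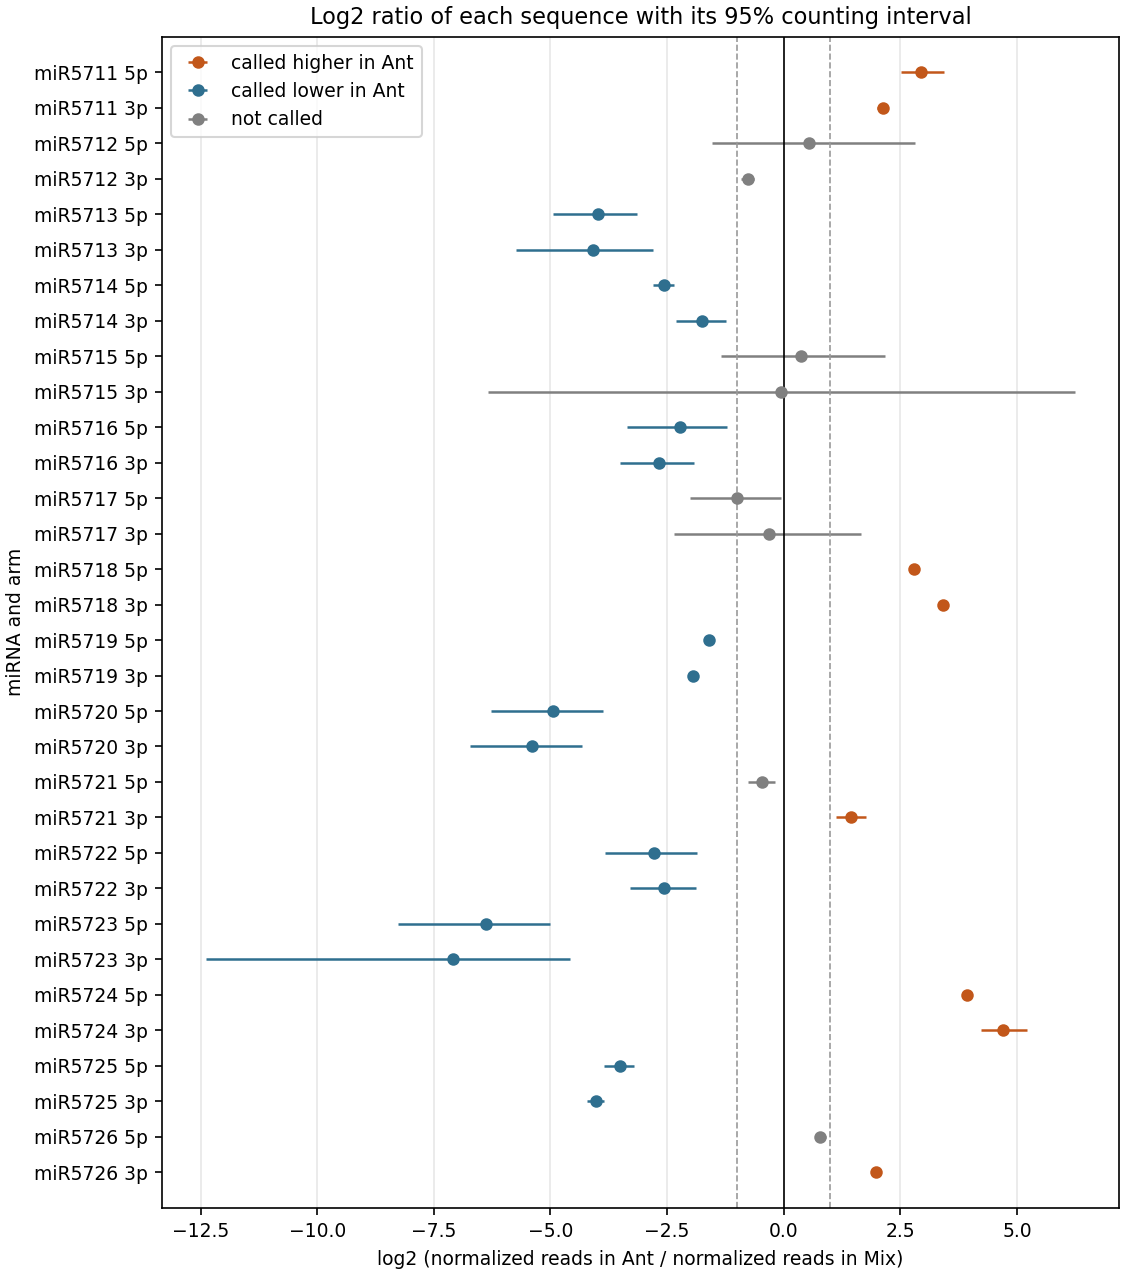
Log2 ratio of ‘Ant’ to ‘Mix’ for each of the 32 sequences with its exact 95% counting interval, coloured by call, with dashed lines at the threshold of 1 in each direction. The arms of a precursor lie next to each other and mostly at like ratios, and the widest intervals belong to arms with 1 read in a library (miR5715 3′ arm and miR5723 3′ arm).

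Summed over the members, reads were 1.22-fold lower in ‘Ant’, and this direction rested on miR5719. The members together held 79046 reads in ‘Ant’, which was 5.87% of the miRNA reads (Wilson interval 5.83% to 5.91%), and 93594 in ‘Mix’, 6.72% (6.67% to 6.76%). The log2 ratio of the sums was -0.29 (-0.30 to -0.28). The arms of miR5719 supplied 83.0% of the member reads in ‘Mix’ and 30.1% in ‘Ant’. Without them 55226 reads remained in ‘Ant’ and 15958 in ‘Mix’, and the ratio was 1.75 (1.72 to 1.77), in the other direction. Leaving out only the 5′ arm of miR5719 already turned the direction, to 0.28. The sum without miR5719 in turn rested on miR5718 and miR5724, while more single members were lower than higher.

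**Figure D3:**
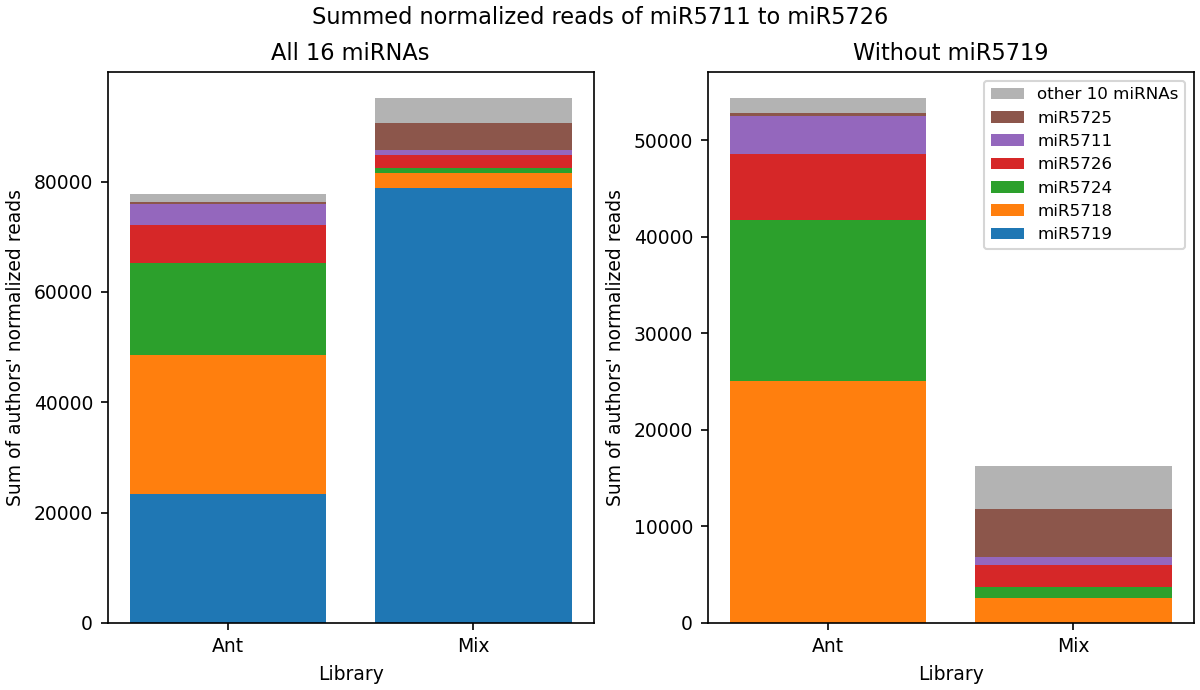
Summed normalized reads of the 16 miRNAs in the ‘Ant’ and ‘Mix’ libraries, stacked by miRNA, with miR5719 in the left panel and without it in the right panel. The bar of ‘Mix’ is the taller one on the left, where miR5719 fills 83.0% of it, and the shorter one on the right.

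By miRNA number, 8 of the 16 sums were more than 2-fold lower in ‘Ant’, 4 were more than 2-fold higher and 4 were inside 2-fold. The lower ones, in order of their log2 ratio, were miR5723 (-6.55, and -4.98 with a pseudocount of 10), miR5720 (-5.19), miR5713 (-4.01), miR5725 (-3.91), miR5722 (-2.64), miR5716 (-2.52), miR5714 (-2.47) and miR5719 (-1.75). The higher ones were miR5724 (3.97), miR5718 (3.26), miR5711 (2.18) and miR5726 (1.58). Between them lay miR5721 (0.44), miR5715 (0.32), miR5712 (-0.76) and miR5717 (-0.85). Neighbours in this order often had overlapping intervals, as miR5713 and miR5725 did.

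The 2 arms of a precursor come from 1 transcript and are not independent, and they mostly had like ratios. In 8 precursors both arms were lower and in 3 both were higher. The likeness of arms was not measured for other precursors of the table, so it is not shown to be particular to these. In 3 neither arm was called, in 2 only 1 arm was, and in none were the arms called in opposite directions. Where both ratios could be taken, they lay within 1 of each other on the log2 scale in 12 of 15 precursors. Their signs differed in miR5712 and miR5721, and for the 5′ arm of miR5712 the ratio rested on 6 and 4 reads.

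The share of a precursor's reads on its 5′ arm compares the arms inside each library and does not depend on the scaling. Of 16 precursors compared, 8 had shares that differed between the libraries beyond counting error, with a Benjamini-Hochberg adjusted p at most 0.05 by Fisher's exact test. Other precursors of the table were not compared in this way, and the count depends on read depth. For example, miR5723, with 5 reads in ‘Ant’, did not pass at 80% in ‘Ant’ and 71.1% in ‘Mix’. The largest difference was in miR5721, where the 5′ arm held 36.3% of 482 reads in ‘Ant’ (Wilson interval 32.1% to 40.7%) and 68.1% of 345 in ‘Mix’ (63.0% to 72.8%; adjusted p = 6.3e-19, exact test). This was the only precursor in which the more read arm changed. In miR5726 the 5′ arm fell from 42.8% in ‘Mix’ to 24.7% in ‘Ant’ (adjusted p = 1.03e-57, exact test), with the 24-nt 3′ arm ahead in both libraries. The other 6 differed by smaller amounts, most in miR5718 (22.3% in ‘Ant’ and 30.7% in ‘Mix’) and least in miR5724 (94.1% and 96.5%). In 14 of the 16 the same arm was ahead in both libraries, and in miR5720 the arms had equal reads in ‘Ant’. An arm stands here for its 1 listed sequence only. Of the 8 precursors whose shares differed, only miR5711 and miR5724 had listed sequences placed as the strands of a duplex would be, as described below. In the others the shares compare 2 sequences that were not placed in this way.

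**Figure D4:**
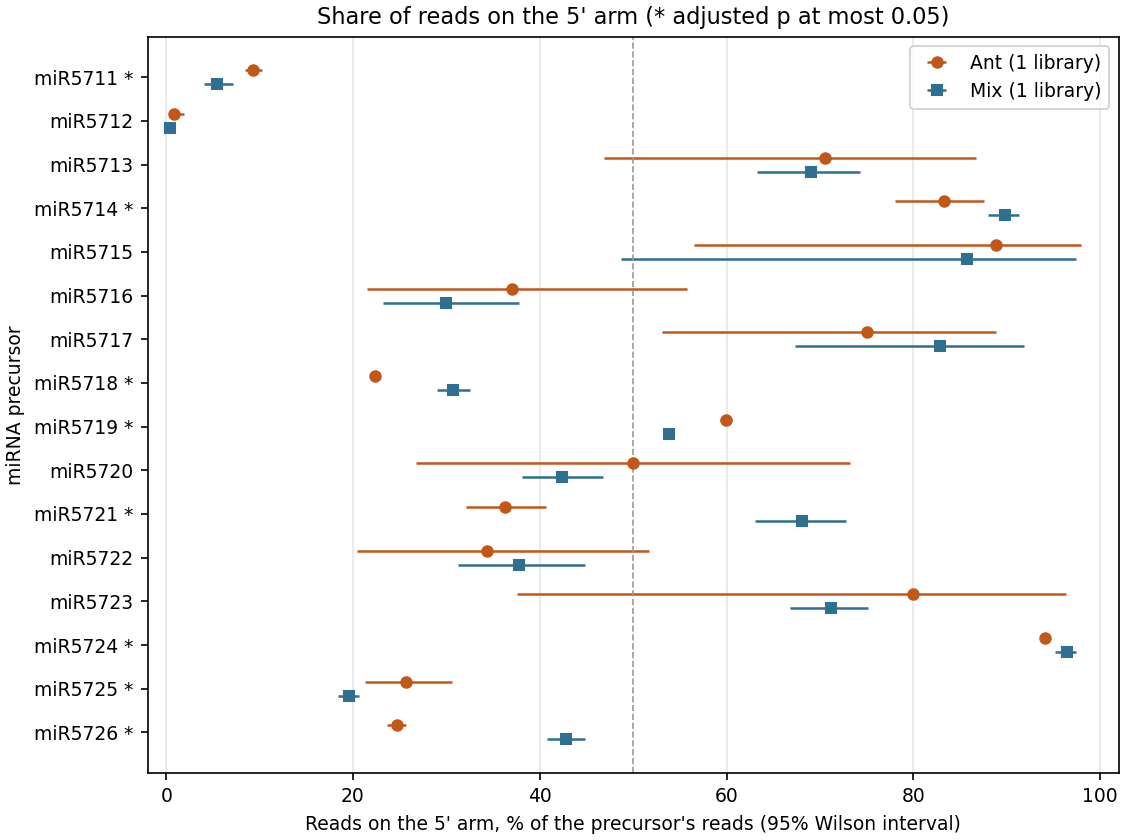
Share of each precursor's reads that fell on its 5′ arm, in percent, with 95% Wilson intervals, for the ‘Ant’ (circle) and ‘Mix’ (square) libraries. A star marks an adjusted p at most 0.05, and miR5721 is the only precursor whose intervals lie on opposite sides of the dashed line at 50%.

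The authors marked 5 of the 32 sequences as identical to the miRBase mature miRNA, 2 as differing from it in ends or bases and 25 as new. The 5 identical ones came from miR5711, miR5715, miR5716, miR5718 and miR5724. Together they gave 39330 reads in ‘Ant’ and 3711 in ‘Mix’ (log2 ratio 3.36, 3.31 to 3.41), and 3 of them were called higher and 1 lower. Most of this sum in ‘Ant’ came from bra-miR5718 and bra-miR5724, with 19782 and 15929 reads. The 25 new ones had 39026 and 88741 reads, a ratio of -1.23 (-1.25 to -1.21), and 5 were higher and 15 lower. Over all 1152 sequences 27.6% were called higher and 19.3% lower. Without miR5719 the new ones had a ratio of 0.41 (0.37 to 0.44), so the direction of their sum also rested on miR5719, while 13 of these 23 were lower. In 9 precursors, miR5713, miR5714, miR5719, miR5720, miR5721, miR5722, miR5723, miR5725 and miR5726, both listed sequences were marked new.

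The place of the listed sequences on the hairpin was compared with the place of the miRBase mature miRNA. In 6 precursors the miRBase miRNA and a listed sequence had the same position: miR5711, miR5712, miR5715, miR5716, miR5718 and miR5724. In 6 others a listed sequence overlapped it but started elsewhere, by 1 nt in miR5717, 3 nt in miR5725, 5 nt in miR5719, 7 nt in miR5723, 11 nt in miR5714 and 12 nt in miR5721. In the other 4 there was no overlap, and the gap between them was 5 nt in miR5726, 6 nt in miR5722, 12 nt in miR5713 and 39 nt in miR5720. Reads in the table for these 10 numbers are therefore reads of a sequence other than the miRBase miRNA of that number, which was not listed under them. In miR5717 the difference is slight, as the listed sequence shares 20 nt with the miRBase miRNA. The listed miR5712 sequence has the miRBase position but differs from it in 1 base.

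**Figure D5:**
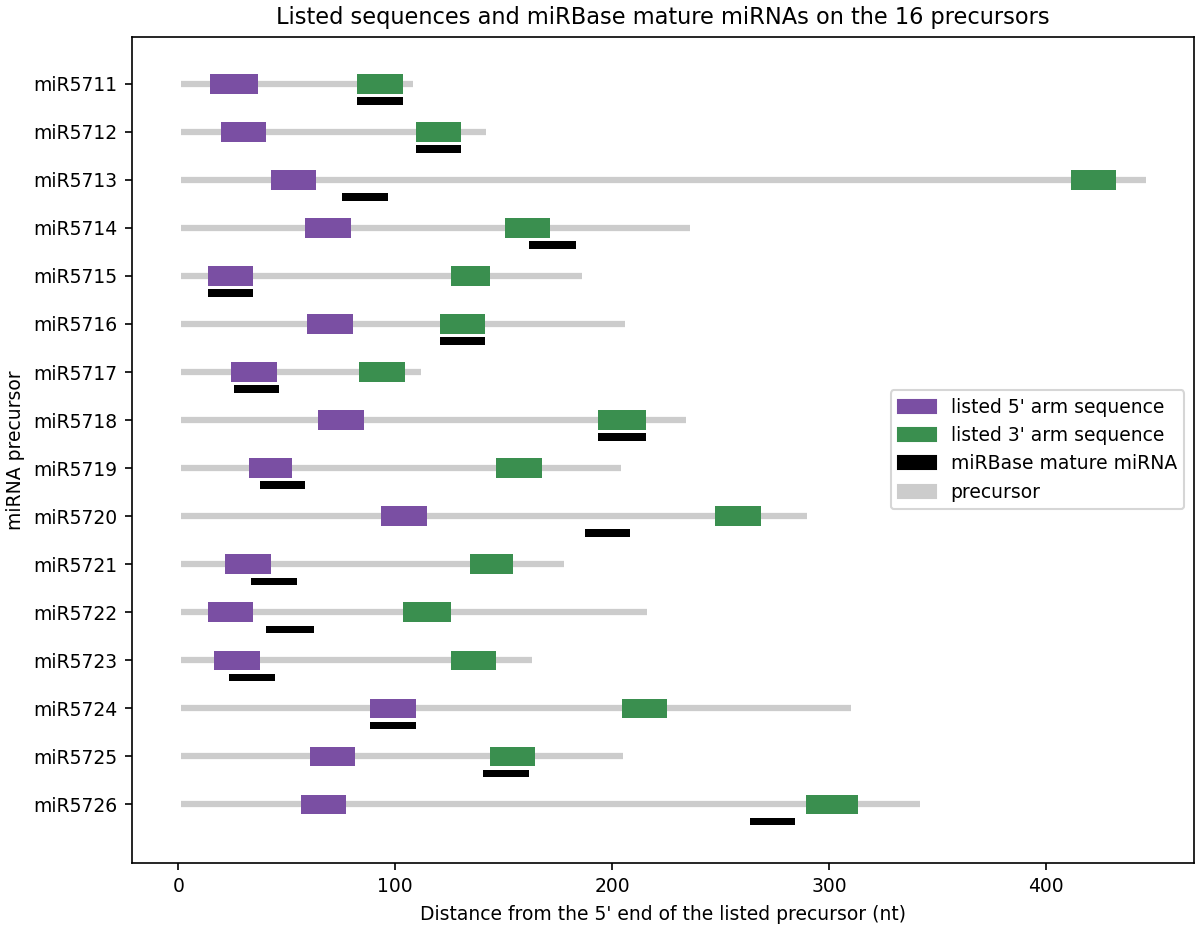
Position of the listed 5′ arm and 3′ arm sequences and of the miRBase mature miRNA (black bar below) on each of the 16 precursors, in nt from the 5′ end of the listed precursor. The black bar sits under a listed arm at the same place in 6 precursors and beside both arms in 4; for miR5722 the 3′ arm is drawn at the place the table marks.

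In the fold given in the table, and at the places it marks, the listed arms of 5 precursors lay opposite each other with 3′ overhangs of 1 to 3 nt at both ends, as the 2 strands of a duplex would. These were miR5711, miR5712, miR5716, miR5723 and miR5724. The same was found for 60.4% of 227 other known precursors with 2 listed arms and for 36.7% of 264 precursors that the authors named PC. In the remaining 11 the overhangs were outside this range, here called out of register. In miR5719 the 3′ ends stopped 1 and 2 nt short of the base opposite the 5′ end of the other arm, and in miR5720 they reached 75 and 78 nt past it. In miR5722 the listed 3′ sequence occurs 2 times in the hairpin, at nt 104 to 125, which the table marks, and at nt 188 to 209. At the second place it lay opposite the 5′ arm with overhangs of 3 nt, so with any copy allowed 6 precursors were in register and 10 were not. The hairpins of miR5723, in register, and of miR5719 and miR5725, out of register, are shown 5′ to 3′ on the strand of the precursor, with the 2 listed arms in capitals.
MIR5723 hairpin: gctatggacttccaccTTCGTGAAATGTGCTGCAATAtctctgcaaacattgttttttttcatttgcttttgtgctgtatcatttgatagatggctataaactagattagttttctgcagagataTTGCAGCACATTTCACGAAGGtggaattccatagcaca
MIR5719 hairpin: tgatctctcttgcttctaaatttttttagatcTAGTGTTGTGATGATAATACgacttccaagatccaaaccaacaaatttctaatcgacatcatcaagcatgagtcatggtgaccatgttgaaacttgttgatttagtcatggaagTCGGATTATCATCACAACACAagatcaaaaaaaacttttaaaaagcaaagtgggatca
MIR5725 hairpin: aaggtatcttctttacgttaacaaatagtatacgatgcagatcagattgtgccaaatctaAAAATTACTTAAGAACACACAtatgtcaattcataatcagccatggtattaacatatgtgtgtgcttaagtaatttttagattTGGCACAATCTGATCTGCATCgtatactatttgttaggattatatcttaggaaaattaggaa

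In MIR5723 all 19 opposed positions of the 2 arms were complementary. In MIR5725 the 3′ end of the listed 3′ arm reached 27 nt past the base opposite the start of the 5′ arm. Both kinds of precursor held members that were lower and members that were higher, with 4 lower and 4 higher of 10 sequences in register and 12 lower and 4 higher of 22 out of register at the marked places. With the second copy of miR5722 the counts were 6 lower and 4 higher of 12 and 10 lower and 4 higher of 20.

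Bases that differed from the hairpin were found in 7 of the 32 sequences. Each is written with the base of the hairpin, the position from 1 at the 5′ end of the listed sequence, and the base that was read. They were A13G in the 3′ arm of miR5712, A8T in the 3′ arm of miR5715, C12T and G19A in the 5′ arm and G5A in the 3′ arm of miR5721, and G20A in the 3′ arm of miR5726. In miR5719 the 5′ arm had A2T and A19C and the 3′ arm A21T. Changes in the seed were A2T in miR5719, A8T in miR5715 and G5A in miR5721. With the bases as read 18 of 19 opposed positions of the miR5719 arms were complementary, and with those of the hairpin 17 of 19. The 7 sequences held 30267 of the 79046 member reads in ‘Ant’ and 80397 of the 93594 in ‘Mix’, nearly all of them from miR5719 in ‘Mix’. Without miR5719 the other 5 had 6447 and 2761 reads. Whether the reads came from the listed position or from another copy was not tested.

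By length, 25 members had 21 nt, 3 had 22 nt, 2 had 20 nt, and 1 each had 18 and 24 nt. Reads of 21 nt made up 49.3% of the member reads in ‘Ant’ and 51.7% in ‘Mix’, beside 77.2% and 80.2% over all sequences. The rest in ‘Mix’ was nearly all the 20-nt 5′ arm of miR5719, with 20-nt reads at 44.8% in ‘Mix’ and 18.5% in ‘Ant’. In ‘Ant’ 22-nt reads, most of them bra-miR5718, made up 25.5%, beside 2.09% in ‘Mix’. The 24-nt reads, all of them from the 3′ arm of miR5726, were 6.69% of the member reads in ‘Ant’ and 1.39% in ‘Mix’, and over all sequences 0.859% and 0.488%. Without miR5719 the 21-nt share was 53.3% in ‘Ant’ and 78.9% in ‘Mix’.

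At the 5′ end, 15 members began with A, 11 with U, 4 with C and 2 with G. Reads that began with U made up 60.5% of the member reads in ‘Ant’ and 90.9% in ‘Mix’, beside 69.1% and 69.9% over all sequences. The difference between the libraries came with miR5719, both of whose arms begin with U: without it the share was 43.4% in ‘Ant’ and 46.7% in ‘Mix’. Reads that began with A then made up 45.5% and 46.5%, and over all sequences 15.3% and 15.5%.

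The precursors lay on 8 chromosomes, with 4 on A09, 3 on A08, 2 each on A02, A06 and A10, and 1 each on A01, A03 and A04. Their hairpins were long, with a median of 201 nt (100 to 442), beside 144 nt over the 739 precursors with a position in the table and 134.5 nt over the 352 known ones among them. The median folding energy was -89.95 kcal/mol beside -70.1 and -58.3, and that of miR5713, -239.6, equalled the lowest of the table. The median GC content was 36.75%, above the 34.7% of all and below the 39.05% of the known precursors. The index that divides the energy by length and GC content, a score of how tightly a hairpin folds for its size, had a median of 1.3, beside 1.3 over all and 1.1 over the known ones. Over the 16 precursors the rank correlation of the log2 ratio with hairpin length was -0.07, with GC content 0.28, with energy 0.23 and with the index -0.42. These are descriptions of 16 points that share 2 libraries, and the 4 higher precursors (100 to 341 nt) and the 8 lower ones (160 to 442 nt) overlapped in length.

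Other miRNAs registered first from Brassica did not have the same balance of calls. Of 123 sequences of miR9408 to miR9411 and miR9552 to miR9569, 18 were lower and 38 higher, with a median log2 ratio of 0.29. Of 20 sequences of miR1140, miR1885 and miR6028 to miR6036, 3 were lower and 6 higher, with a median of 0.62. A smaller share had at least 100 reads in 1 library, 18 of 123 and 11 of 20, beside 24 of 32 members. Their summed reads were not all lower than those of the members, 79046 for ‘Ant’ and 93594 for ‘Mix’. The set with miR9408 summed to 88447.5 and 9851.66 reads, and the set with miR1140 to 113257.5 and 144960. The difference in calls between the sets was not tested. All known sequences of the table, 557 with the members among them, had 166 lower and 148 higher and a median of -0.22.

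A few sequences outside the members touched their precursors. The 3′ arm of miR5712 was listed for its own precursor (A01:6637246-6637387, plus strand) and again for a precursor of MIR9561 (A03:14804996-14805118, minus strand), so its reads cannot be assigned to either place. The other listed arm of that second precursor, bra-miR9561-5p_L-2R+1, gave 37 reads in ‘Ant’ and 6 in ‘Mix’. A PC-named precursor (A02:718480-718597, minus strand) held a sequence with 1 mismatch to it, with 20 and 11 reads. On the strand opposite to MIR5714 a second PC-named precursor overlapped it, with 11 and 6 reads on its 5′ arm and 4 and 0 on its 3′ arm.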

How the data were processed

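Total RNA was extracted from ‘Ant’ and ‘Mix’ and 1 small RNA library was sequenced for each. The labels and the methods of the study differ on the amount of RNA used. The authors removed adapters, low-complexity reads, common RNA families and repeats, kept 18 to 25 nt, and mapped unique sequences to miRBase 21 precursors and to the genome. The version of the mapping tool is not given in the sources used here, and the table names no genome build, so positions of precursors are printed as listed. The reads that the authors deposited for each miRNA are estimated counts, since some hold fractions. The authors multiplied them by 1 factor per library to give the normalized signal. The authors also deposited the GC percent, the length, the folding energy and a folding score of each hairpin.

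Each distinct sequence was taken once, with the reads of its first record. Reads were rounded and tested over all 1152 sequences with chi-square and Fisher's exact tests. A call needed a log2 ratio beyond 1 in either direction with both p-values no higher than 0.05. Ratios have exact binomial intervals and shares Wilson intervals at 95%. For medians over sequences, reads under 3 were set to 3, and sequences with at most 3 reads in both libraries were left out. Arm shares were tested over 16 precursors with Benjamini-Hochberg adjustment. The members and lists were chosen with earlier results of these data known. Members with at least 100 reads in 1 library, called or at 0 in 1 library were given in full, the others by range, and miR845 was fixed as the check of the anther label. Sequences are those of the authors' table.

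Alternatives were either test alone, the fold alone, adjusted p-values (Benjamini-Hochberg), scaling by miRNA reads, valid reads or TMM, minimums of 10 reads, names in place of sequences, pseudocounts of 1 and 10, a stricter log2 threshold of 2, and the exact test of edgeR on rounded reads with an assumed variation between replicates of 0.2 or 0.4. Python 3.11.15, numpy 2.4.6, pandas 2.3.3, scipy 1.17.1 and matplotlib 3.10.9 were used, with R 4.3.3 and edgeR 4.0.16. The other RNA classes of the study were not analysed here.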

Additional observations from a re-analysis of the deposited data

How the results depend on the processing

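No paired analysis was possible because each group had 1 library, and for the same reason no replicate could be left out. The count of called members, 24, ranged from 19 to 25, beside 46.9% of all sequences in the main setting. It was 19 with at least 10 reads in both libraries, where 23 members were tested, and at a log2 threshold of 2. Over all sequences tested 54.0% and 34.6% were called there. It was 25 with valid-read or TMM scaling, which added bra-miR5717_L+1R-1, at -1.07 and -1.20, beside 45.7% and 46.1% of all sequences. Of the 24, 3 calls were lost at an assumed variation of 0.4 and 5 at the log2 threshold of 2, and no member changed direction in these alternatives (the 3′ arm of miR5715, with 1 read in each library, was left out). The log2 ratio of all member reads, -0.29, was -0.37 with valid-read scaling, -0.19 with miRNA-read scaling and -0.50 with TMM. It was 0.28 without the most read member, 1.75 without miR5719 and 1.84 without the sequences that differ from their hairpin; the last 2 of these were added after the data were seen. The 21-nt share of member reads was 60.2% in ‘Ant’ and 93.5% in ‘Mix’ without the most read member, and 53.3% and 78.9% without miR5719. A pseudocount of 10 moved the ratios of 8 members with few reads in ‘Ant’ by more than 1.5-fold, with no call lost. The median over members, -1.60, was -1.27 and -1.12 with pseudocounts of 1 and 10, which leave no sequence out. Over all sequences the medians were then 0.33 and 0.14. Sums beyond 2-fold numbered 12, and 13 with TMM. Allowing the second copy of the miR5722 arm, also added later, put 6 precursors in register in place of 5. Arm shares differed in 8 precursors also with a minimum of 10 reads in both libraries. Scaling by valid reads and miRNA reads moved the median of all sequences by -0.08 and 0.10. With 1 library per group the spread between plants is unknown, and members with under 10 reads limit what can be told.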
